A study of Mus musculus with 28 samples.

Results

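The 6 genes described here encode the mouse cell adhesion molecules Cadm1, Cadm2, Cadm3 and Cadm4 and the adhesion modifiers Mdga1 and Mdga2. They were chosen by name as the complete Cadm and Mdga families, because the study lists Cadm2 and Mdga2 in a group of genes many of which are very long. All 6 were found among the 23453 genes of the exonic and the 20422 genes of the intronic table. The RNA of 28 single cells from mouse cortex was counted per gene in exons and in introns. The labels name 8 astrocytes and 12 neurons of genotype C57/BL6 from primary culture, picked with a pipette, and 8 interneurons of genotype C57/BL6/N, which were patch clamped in acute slices and drawn into the pipette. They give no treatment, transgene or time point. The labels name neither the animal nor the culture of a cell, and the labels and the study's methods differ on the age of the animals behind the cultures, so none is given. Libraries of the cultured cells (TruSeq Nano DNA kit, NextSeq) and of the interneurons (TruSeq Stranded kit, HiSeq) were made differently, so cell type, preparation and library cannot be told apart between cultured cells and interneurons.

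None of the column codes in the tables matches a label of a cell. Values are therefore given over 3 blocks of codes: a first BRP block of 8 columns (BRP564 and BRP566 to BRP572), a second BRP block of the other 12 BRP columns, and an F block of 8 columns. From their sizes and markers the blocks are presumed to be the astrocytes, the neurons and the interneurons in that order, but no label ties a column to a cell, so no test was made between blocks and no p-value or replicate error is given. A difference is described by the lowest, the median and the highest column of each block and by whether 2 blocks overlap. Levels are CPM, a gene's counts scaled to a total of 1000000 exonic or intronic counts in the column.

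Marker genes bear on these names, and several columns stand apart. Summed exonic CPM of 9 astrocyte markers had a median of 3633 in the first BRP block, 988 in the second and 699.7 in the F block, and that of 6 neuronal markers 565, 6842 and 3305. Within the astrocyte list Slc1a2 went the other way, with medians of 192 CPM in the first and 804 CPM in the second BRP block. Within the neuronal list Stmn2 and Tubb3 had lower medians in the F block (76.8 and 4.45 CPM) than in the first BRP block (194 and 8.40 CPM). Snap25, Syt1 and Map2 had higher medians in the F block (1546, 497 and 646 CPM) than in the first (0, 1.22 and 358 CPM). Rbfox3 had medians of 0, 150 and 0.125 CPM in the first BRP, second BRP and F block. Over 3 GABAergic markers the medians were 5.12, 36.3 and 4469, and over 3 glutamatergic markers 0.0253, 341 and 0.114. Within the GABAergic list Gad2 had a higher median in the second BRP block (36.3 CPM) than in the F block (10.2 CPM). Gad1 and Slc32a1 had medians of 0 in the second BRP block and of 2754 and 531 CPM in the F block. Every column of the first BRP block also held oligodendrocyte lineage RNA: the summed level of 7 markers was 563 to 1312 CPM, with Olig1 at 432 to 1048 CPM, while Mog was at 0. In that block BRP566 held the glutamatergic gene Slc17a6 (133 CPM), while the other columns had glutamatergic sums of at most 0.154 CPM. Within the second BRP block, BRP528 held Gad1 (1136 CPM) and Mbp (455 CPM), BRP529 held Olig1 (831 CPM) and Aqp4 (418 CPM), and BRP541 held Olig1 (503 CPM). Among the F columns, F7 held Olig1 (3210 CPM) and Slc1a2 (4350 CPM, nearly all of its astrocyte sum of 4363 CPM) beside neuronal and GABAergic sums of 3163 and 1134 CPM, and F16 held the microglial gene Csf1r (2093 CPM) with the other 5 microglial markers at 0 and neuronal and GABAergic sums of 16636 and 4825 CPM. F24 had Snap25 at 21.7 CPM with a neuronal sum of 2106 and a GABAergic sum of 4966 CPM, and F11 and F12 had Gad1 at 18.9 and 0.739 CPM with GABAergic sums of 478 and 618 CPM, most of it Slc32a1. The astrocyte sums of F11 and F12 were 1070 and 1180 CPM, nearly all of it Sox9, with Gfap and Aldh1l1 at 0. Exonic totals were 12969692 to 19798892, 17483754 to 26770944 and 838343 to 14831505 counts per column for the blocks in the same order, so 3 counts correspond to at most 0.231 CPM in BRP columns and to as much as 3.58 CPM in the shallowest F column, F16.

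Cadm proteins, also called SynCAM or nectin-like molecules, are membrane proteins of the immunoglobulin superfamily that bind each other across cell contacts, as homophilic or heterophilic pairs, and carry a short cytoplasmic tail that binds protein 4.1 and membrane-associated guanylate kinase scaffolds. In brain they are known from synapses and from the contact of axons with glia. Mdga proteins are anchored to the membrane by glycosylphosphatidylinositol and bind neuroligins, which keeps neuroligins from pairing with presynaptic neurexins.

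The 6 genes differ widely in length. In GENCODE M21 (GRCm38) Cadm2 lies on the minus strand at chr16:66655421-67620908 and spans 965 kb, longer than 99.7% of the tabled genes with a position, and 1 of its introns is 667 kb long. Mdga2 (minus strand, chr12:66466060-67222549) spans 756 kb, longer than 99.6%. Their closest relatives are shorter: Cadm1 (plus strand, chr9:47530173-47857637) spans 327 kb, Mdga1 (minus strand, chr17:29827949-29970087) 142 kb, Cadm3 (minus strand, chr1:173333258-173367695) 34.4 kb and Cadm4 (plus strand, chr7:24482023-24504539) 22.5 kb. Introns make up 99.0% of Cadm2 and 97.6% of Mdga2, so an intronic count of either gene draws on a target far longer than that of Cadm3 or Cadm4. No stretch of 31 bases is shared between annotated transcripts of any pair of Cadm genes, while Cadm2 shares 3 such stretches with Mdga1 and 2 with Mdga2, and Mdga1 and Mdga2 share 2. The antisense gene 1700010K23Rik lies within Cadm2 and Aim2 overlaps Cadm3 on the opposite strand. The strand setting of the counting is not given in the sources used here, so reads of such partners could not be told apart. Against the 3384 intronic counts of Cadm3 over all columns, Aim2 had 920, and against the 322581 of Cadm2, 1700010K23Rik had 4182.

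The promoters of Cadm2 and Cadm3 are shown because these are the members whose exonic levels were higher in 1 block of columns than in another without overlap, and that of Mdga2 because it is the other very long member. Each is the RefSeq sequence (GRCm38.p6) from 250 bases before to 50 after the gene's start, read 5′ to 3′ on the gene's strand, all 3 on the minus strand, at chr16:67620859-67621158 (Cadm2), chr1:173367646-173367945 (Cadm3) and chr12:67222500-67222799 (Mdga2). Capitals mark matches, searched on both strands. The motifs were the E-box with the letters CACGTG, the box named CCAAT for its letters, which appears here as the reverse complement, and the TATA motif with the letters TATAAA. A GC-rich motif called the GC box with the letters GGGCGG and the core of the cyclic AMP response element with the letters TGACGT were searched too, and no motif overlapped another.
Cadm2: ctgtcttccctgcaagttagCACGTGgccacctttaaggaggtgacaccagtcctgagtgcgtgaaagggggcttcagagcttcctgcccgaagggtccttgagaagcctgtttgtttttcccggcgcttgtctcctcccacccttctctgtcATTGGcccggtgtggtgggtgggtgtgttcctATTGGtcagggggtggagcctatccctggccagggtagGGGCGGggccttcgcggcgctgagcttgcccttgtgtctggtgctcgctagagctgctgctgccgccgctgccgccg
Cadm3: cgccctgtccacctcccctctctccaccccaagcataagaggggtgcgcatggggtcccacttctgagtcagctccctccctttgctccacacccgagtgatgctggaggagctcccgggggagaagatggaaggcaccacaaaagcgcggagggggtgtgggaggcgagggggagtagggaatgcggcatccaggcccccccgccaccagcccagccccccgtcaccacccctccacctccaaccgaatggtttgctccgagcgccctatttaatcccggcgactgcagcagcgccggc
Mdga2: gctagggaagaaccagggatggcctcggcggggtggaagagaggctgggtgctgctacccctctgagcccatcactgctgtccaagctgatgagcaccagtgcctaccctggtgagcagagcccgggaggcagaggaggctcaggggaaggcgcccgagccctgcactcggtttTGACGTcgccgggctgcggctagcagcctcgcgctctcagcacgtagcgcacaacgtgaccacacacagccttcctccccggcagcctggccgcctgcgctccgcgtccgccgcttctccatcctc
The Cadm2 window held 1 E-box, 2 CCAAT boxes and 1 GC box, the Mdga2 window 1 response element core, and the Cadm3 window none of the 5 motifs. Of 32851 RefSeq promoters, 7.15% held this E-box, 37.4% the CCAAT box, 13.6% the TATA box, 35.7% the GC box and 7.51% the response element core. Among the other members with an entry, Cadm4 had 4 GC boxes and Mdga1 had 1, the Mdga1 window (chr17:29887833-29888132) lying inside the GENCODE gene because RefSeq places its start there. All 5 windows were richer in G and C than the median promoter (52.7%), from 62.7% in Cadm2 to 77.0% in Cadm4.

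Exonic levels were compared to see which paralogs each block carried. The main contrast lay between the BRP blocks: Cadm2 and Cadm3 were higher in every column of the second BRP block than in any column of the first, while Cadm1, Cadm4, Mdga1 and Mdga2 overlapped. Thus 2 of 6 members stood apart in this direction, against 2.56% of the 16110 genes with at least 10 counts over both blocks, and 0 of 6 in the reverse direction, against 3.26%. Both shares of all genes were higher when BRP528, BRP529 and BRP541 were left out, as given in the closing section on processing. The median of the log2(CPM + 1) difference, second minus first, was 0.66 over the 6 members and 0 over all genes tested. Of the members 5 of 6 had the higher median in the second BRP block, against 31.8% of all genes tested. Among the latter 5118 were higher, 7887 lower and the rest tied. For Mdga1 the direction rested on single columns: its difference was 0.46 and became -0.075 without BRP567, BRP568, BRP570 or BRP571, each left out alone. All 6 members passed the minimum of 10 counts in both layers, and an exonic count was found in 28 of 28 columns for Cadm1, 26 for Cadm2 and Cadm3, 25 for Cadm4 and Mdga2 and 19 for Mdga1. Because the families were picked with results of these data in view, those counts describe the members only.

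**Figure D1:**
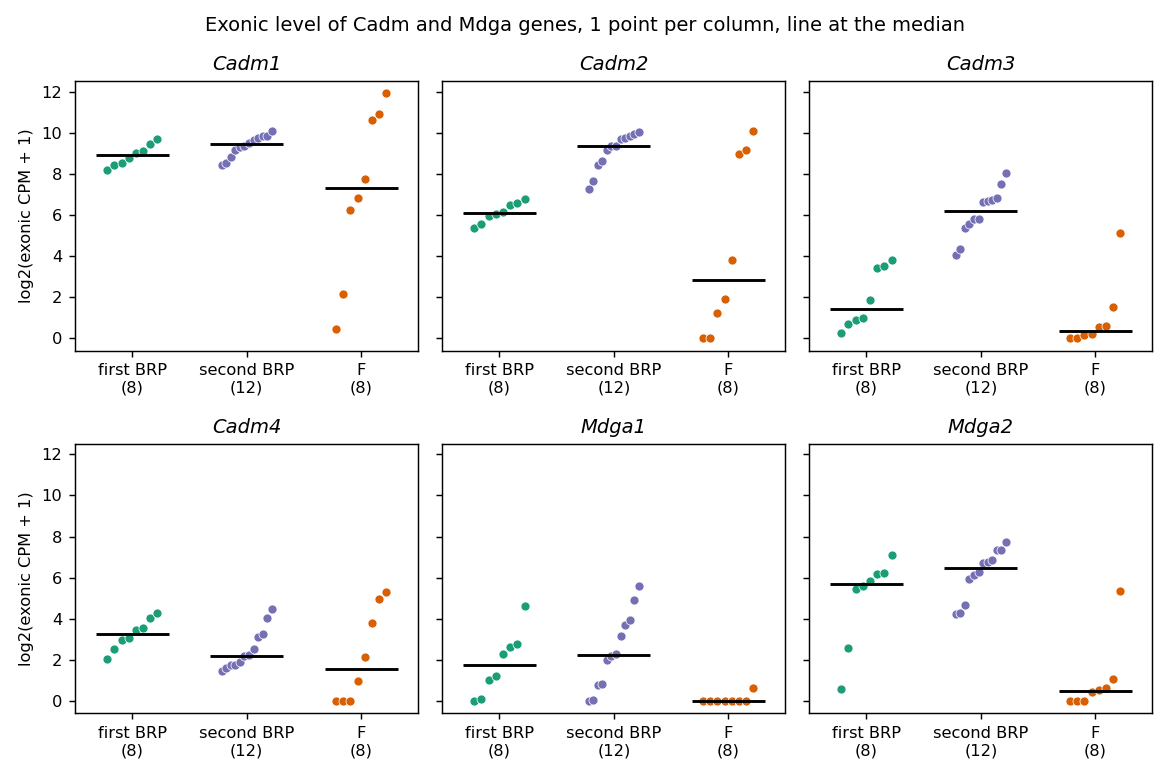
Exonic level of the 6 genes as log2(CPM + 1), 1 point per column, with a line at the median of each block. The second BRP block lies wholly above the first for Cadm2 and Cadm3, and the F block runs from 0 to its highest value for Cadm2, Cadm3, Cadm4, Mdga1 and Mdga2.

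Cadm1, the founding member of the family, had many exonic counts in both BRP blocks. Its exonic level was 294 CPM in the lowest, 481 in the median and 839 in the highest column of the first BRP block, and 345, 696 and 1084 CPM in the second. These ranges overlapped over most of their width, and the ratio of the medians, second to first, was 1.45. In the F block the level ran from 0.369 CPM (F12, 1 count) over a median of 165 to 3876 CPM in F24, so that 3 columns (F6, F7 and F24) exceeded every BRP column and 5 lay below every BRP column. F7 and F24 are among the columns with unusual markers. The part of these markers in the spread was not tested.

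Cadm2, which binds other Cadm proteins and is known from axons and their contacts with glia, was detected in every BRP column at a level that separated the blocks. In the first BRP block its exonic level was 41.1, 67.7 and 108 CPM in the lowest, median and highest column. In the second it was 155, 656 and 1051 CPM, 9.69 times the first by the ratio of medians. The lowest column of the second BRP block, BRP528, which also carries GABAergic and glial markers, was still above the highest of the first, BRP572. BRP529 (580 CPM) and BRP541 (1051 CPM), the other columns of that block singled out above for glial markers, were not at its low end. Without all 3 columns the second BRP block ran from 203 to 982 CPM at 9.79 times the first. Among F columns Cadm2 was at 504 CPM in F1, 571 CPM in F7 and 1099 CPM in F2, and between 0 and 13.2 CPM in the other 5, with a median of 7.98 CPM over all 8, of 2.73 CPM without F1 and of 504 CPM without F7, F11, F12, F16 and F24. These 5 were F6 (1.33 CPM), whose Gad1 (8713 CPM) was the highest of all columns, and F11, F12, F16 and F24, 4 of the 5 F columns with unusual markers. F12 and F16 had 0 counts, which at their depth allows up to 1.11 and 3.58 CPM.

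Cadm3, which is known mainly as a neuronal member that pairs with other Cadm proteins, was low in the first BRP block. There it had 3 to 216 counts, or 0.185, 1.83 and 13.1 CPM in the lowest, median and highest column. The second BRP block had 15.9, 76.8 and 263 CPM. The ranges were narrowly apart: the highest column of the first block was BRP568, and the lowest of the second was BRP529, which holds glial markers, followed by BRP528 with 19.7 CPM. Without BRP528, BRP529 and BRP541 the lowest was 41.0 CPM. By medians the second BRP block was 42.1 times the first, or 56.2 times without those 3 columns. The F block had 34.3 CPM in F1 and at most 1.89 CPM in the other 7 columns.

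Cadm4, a member known from the glial side of the axon contact in myelinating cells, was low throughout, and it was the only member whose exonic median was lower in the second BRP block than in the first. It measured 3.12, 8.66 and 18.6 CPM in the lowest, median and highest column of the first BRP block and 1.79, 3.60 and 21.1 CPM in the second, so the ranges overlapped, and BRP528, with glial markers, was the highest BRP column. Of the F columns 3 had no count, and F12 (30.7 CPM) and F1 (38.8 CPM) were the highest of all 28 columns.

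Mdga1 was low, and in the F block at the edge of detection. It had 0 to 303 counts in columns of the first BRP block (median 2.66 CPM, highest 23.4 CPM in BRP569) and 0 to 1013 in the second (median 3.72 CPM, highest 47.6 CPM in BRP535). The blocks thus overlapped from 0 upwards. The ratio of medians rose from 1.40 to 3.01 when BRP528, BRP529 and BRP541 were left out, since these 3 had between 0 and 18 counts. Among F columns 3 counts were found in F2 and none in the other 7. After each column was thinned to 838343 exonic counts, the depth of the shallowest, Mdga1 had a count in 4 of 8, 9 of 12 and 0 of 8 columns of the first BRP, second BRP and F block.

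Mdga2 exceeded Mdga1 in most columns but was uneven. In the first BRP block it ran from 0.505 CPM (BRP570) and 4.90 CPM (BRP566) over a median of 51.7 to 138 CPM in BRP564. In the second BRP block the lowest, median and highest column had 17.9, 90.1 and 215 CPM. The blocks overlapped, with a ratio of medians of 1.74. Among F columns F1 had 39.5 CPM and the other 7 columns at most 1.14 CPM, corresponding to 0 to 5 counts.

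The count of members apart between the second BRP block and the F block depended on which columns were used. With all columns, 0 of 6 members were higher in every column of the second BRP block than in any F column, against 9.25% of the genes tested. Without F1, Cadm3 and Mdga2 stood apart in that way, 2 of 6 against 12.7%. Without BRP528, BRP529 and BRP541 in place of F1, Cadm3 and Mdga1 did, 2 of 6 against 12.5%, although the lowest Mdga1 level then left, 0.715 CPM, is under the 3-count level of the shallowest F columns. F1 is also the F column with the lowest intronic share of all counts (5.31%, against 36.3% or more in the other 7) and the deepest exonic total, and its part in these values was not tested. No member stood apart between the first BRP block and the F block, where 22.0% of genes were higher in every column of the first.

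Composition of the Cadm family was compared per length, as exonic CPM per kb of annotated exon. In the first BRP block Cadm1 led in 8 of 8 columns and held 69.5% to 89.2% of the family's summed level, with a median of 77.8%, while Cadm2 held 5.24% to 18.8%. Cadm1 and Cadm2 did not overlap there: Cadm1 was at 28.2 to 80.4 CPM per kb, and Cadm2 had a median of 6.90. In the second BRP block Cadm2 led in 7 columns and Cadm1 in 5, their medians were 66.9 and 66.7 CPM per kb, and the 2 genes were not distinct beyond their spread. Cadm3 held a median of 5.23% and up to 22.7% of the family in this block, against 0.338% and up to 4.48% in the first. In the F block the leading gene was Cadm1 in F6, F7, F16 and F24, Cadm2 in F1 and F2, and Cadm4 in F11 and F12, the columns with Sox9, whose part in this was not tested.

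The full order per kb in the first BRP block was Cadm1, Cadm2, Cadm4, Mdga2, Mdga1 and Cadm3, and past Cadm1 each neighbour overlapped the next. In the second BRP block it was Cadm2, Cadm1, Cadm3, Mdga2, Cadm4 and Mdga1, with all neighbours overlapping, although Cadm1 exceeded Cadm3 in 12 of 12 columns. In the F block the medians ran Cadm1, Cadm4, Cadm2, Cadm3, Mdga2 and Mdga1, with all neighbours overlapping, although Cadm4 exceeded Cadm2 in only 3 of 8 columns. Cadm3, Mdga2 and Mdga1 had exonic medians of 0.311, 0.417 and 0 CPM there. These lie under 0.613 CPM, the median level of 3 counts over F columns, so their order is not resolved. Cadm1 has 10440 bp of merged exons but 4767 bp in its longest transcript, against 9809 and 9564 bp for Cadm2. With the longest transcript as length, the median log2 ratio of Cadm2 to Cadm1 fell from 0.07 to -1.02 in the second BRP block and from -2.59 to -3.69 in the first, so the near equality in the second block depends on the length used, whereas the lower place of Cadm2 in the first block does not. Mdga2 has 18336 bp of merged exons but 9833 bp in its longest transcript, and Cadm4 has 2161 bp by both. The order of the other members was not computed with the longest transcript, so their places hold for merged exons only. Within the Mdga pair, Mdga2 was above Mdga1 per kb of merged exon in 12 of 12 columns of the second BRP block and in 7 of 8 of the first. The exception there was BRP566, with 92 counts of Mdga1 and 77 of Mdga2. BRP566 is also the column of that block with Slc17a6, whose part in this was not tested.

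**Figure D2:**
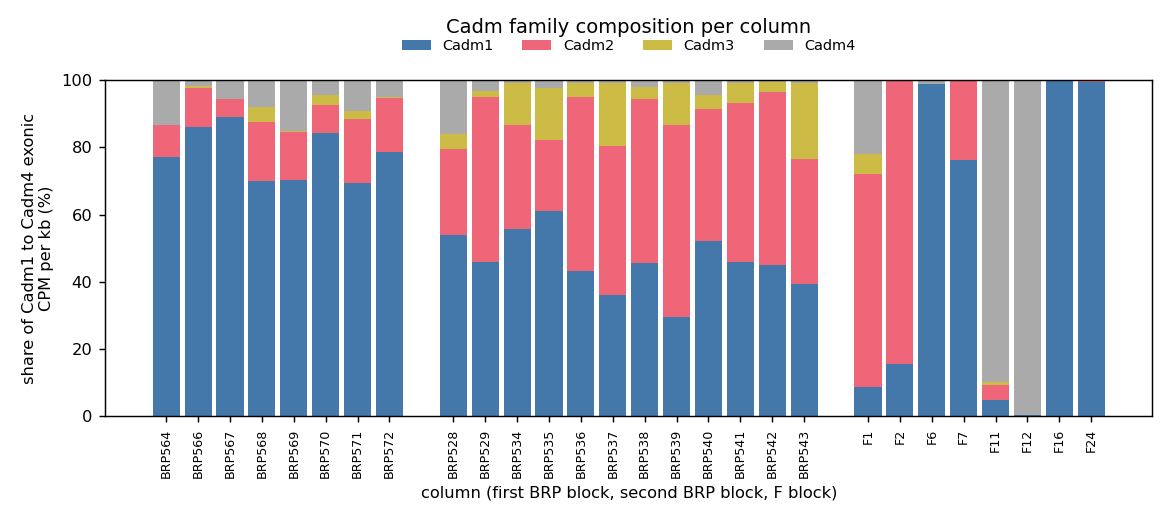
Share of each Cadm gene in the summed exonic CPM per kb of Cadm1 to Cadm4, 1 bar per column in the order first BRP, second BRP and F block. Cadm1 is the largest part of 8 of 8 first-block bars, Cadm1 and Cadm2 are of similar size in the second block, and single genes fill most of several F bars.

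Intronic counts come largely from RNA that is not yet spliced, and the study set them beside its measure of single-stranded DNA. Here Cadm2 and Mdga2 were abundant among intronic counts in all 3 blocks. The intronic total itself was a median of 8.75%, 15.7% and 50.4% of all counts in the first BRP, second BRP and F block, and intronic levels are relative to it. The intronic level of Cadm2 was 942, 3249 and 4620 CPM in the lowest, median and highest column of the first BRP block, 282, 2366 and 6244 CPM in the second, and 135, 1805 and 4685 CPM in the F block. All 28 columns had at least 454 intronic counts of the gene. The separation of the BRP blocks seen in exons was not seen in introns: the ranges overlapped, the second BRP block had 0.728 times the median of the first, and the sign of the difference turned with the scaling, from -0.53 on the log2(CPM + 1) scale to 0.53 with DESeq2 size factors and 0.44 with TMM factors. BRP529 had the lowest intronic level of Cadm2 among BRP columns and BRP540 the highest.

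Mdga2 likewise had 18.6, 1528 and 3753 CPM in the lowest, median and highest column of the first BRP block, 401, 1565 and 8019 CPM in the second and 32.5, 1273 and 4796 CPM in the F block. These medians lay closer together than the columns of any block, and the difference between the BRP blocks, second minus first, was 0.031 on the log2(CPM + 1) scale but 0.87 with DESeq2 size factors and 0.80 with TMM factors. The lowest column of the first block was BRP568, with 22 intronic but 1210 exonic counts, and BRP570 in the same block had the opposite, 6202 intronic and 10 exonic counts. F columns with no exonic count of Mdga2 still had many intronic ones, 5921 in F16, 3142 in F12 and 2054 in F6.

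Cadm1, the third long gene, had intronic medians of 432, 546 and 203 CPM in the 3 blocks in the same order, within ranges of 91.1 to 1823, 11.1 to 3080 and 3.61 to 16531 CPM. Its spread was widest in the F block, from 3 counts in F1 to 59646 in F24. The short genes Cadm3 and Cadm4 had few intronic counts, with medians of 3.50 CPM or less in each block, and so did Mdga1. For Cadm3 the most were found in BRP540 (1597 counts), BRP542 (1063) and BRP539 (441), and 11 of 28 columns had none. Between the BRP blocks 0 of 6 members stood apart by intronic level in either direction, against 0.0409% of 14664 genes for the second above the first and 0.198% for the first above the second.

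**Figure D3:**
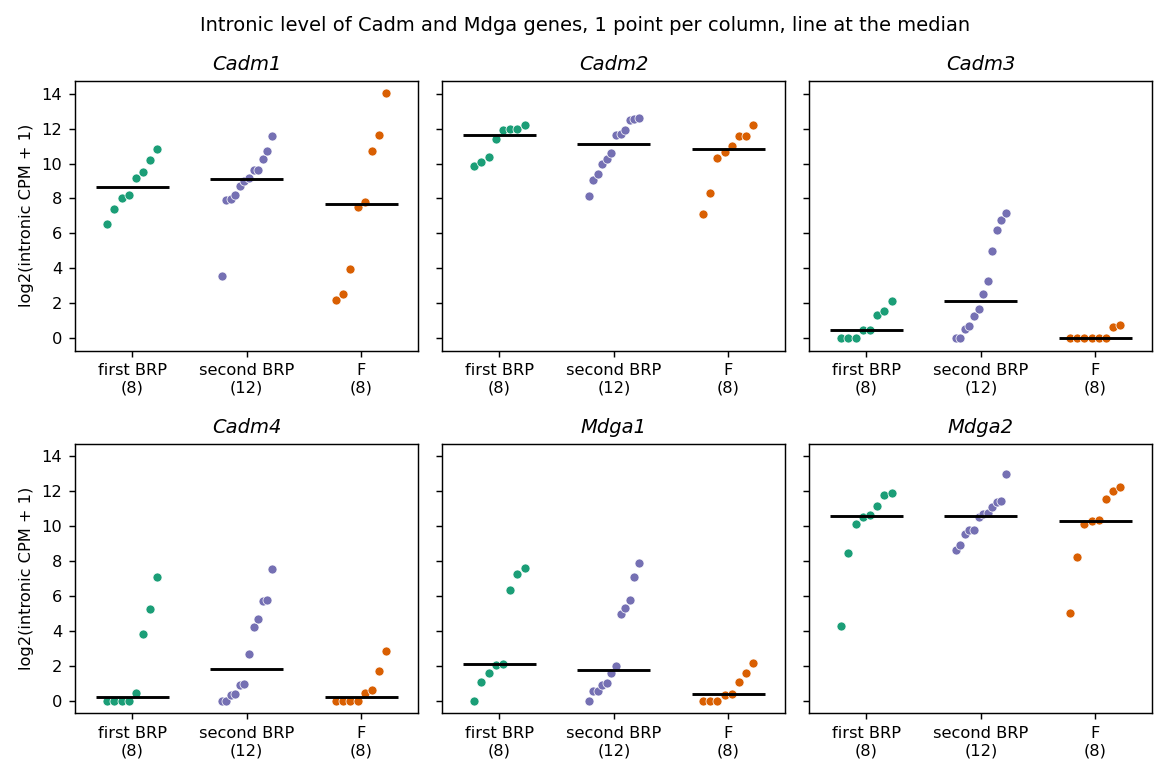
Intronic level of the 6 genes as log2(intronic CPM + 1), 1 point per column, with a line at the median of each block. Scaled to each column's own intronic total, Cadm2 and Mdga2 sit at similar heights in all 3 blocks, and Cadm3, Cadm4 and Mdga1 lie near 0 in most F columns.

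The 3 long genes also led per length. Per kb of annotated intron the medians ran Cadm2, Mdga2, Cadm1 in each of the 3 blocks, at 3.40, 2.07 and 1.36 CPM per kb in the first BRP block, 2.48, 2.12 and 1.72 in the second and 1.89, 1.73 and 0.639 in the F block. Neighbours in this order overlapped in all 3 blocks. Cadm2 exceeded Mdga2 in 6 of 8, 7 of 12 and 3 of 8 columns of the first BRP, second BRP and F block. Mdga2 exceeded Cadm1 in 5 of 8, 4 of 12 and 5 of 8 columns. By level per kb of intron Cadm2 was above 96.9%, 98.2% and 99.4% and Mdga2 above 94.5%, 97.7% and 99.3% of 14955 genes in the first BRP, second BRP and F block. Cadm3 and Cadm4 were above 38.3% and 35.0% of genes in the first BRP block and above 76.9% and 79.7% in the second.

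The intronic share of a gene's own counts sets both layers side by side. For Cadm2 the share had a median of 78.7% over the first BRP block (49.2% to 92.8%), 43.6% over the second (4.60% to 85.9%) and 99.1% over the F block (18.4% to 100%). In summed counts it was 79.9% (95% exact binomial interval 79.6% to 80.3%, counting error only), 55.6% (55.4% to 55.7%) and 81.0% (80.7% to 81.2%). Cadm2 counts in the first BRP block were thus mostly intronic, and the ranges of both BRP blocks overlapped. Annotated introns of Cadm2 cover 955.679 kb against 9.809 kb of exon, so this share of counts is not a share of RNA molecules. The share of all counts that were intronic went the other way between the BRP blocks, with medians of 8.75% and 15.7%, and was 50.4% in the F block.

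For Mdga2 the median share was 80.1% in the first and 80.4% in the second BRP block, and 99.99% in the F block, where F1 (4.40%) was the exception. Its range in the first BRP block, 1.79% to 99.8%, covered nearly the whole scale, in BRP568 and BRP570 respectively. Cadm1 had lower medians than both long relatives, with shares of 6.70%, 15.7% and 70.8%. Its columns ran from 2.75% to 18.0%, 0.188% to 61.6% and 0.273% to 99.8%, and in summed counts the shares were 9.73%, 29.3% and 66.8%. These columns lay below those of Cadm2 in the first BRP block without overlap and overlapped those of Mdga2 there and of both genes in the other blocks. Cadm3 had a median share of 1.01% (0 to 14.3%) in the first and 0.827% (0 to 62.6%) in the second BRP block, over the columns with at least 10 counts. In summed counts its share was 1.69% and 12.2%.

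**Figure D4:**
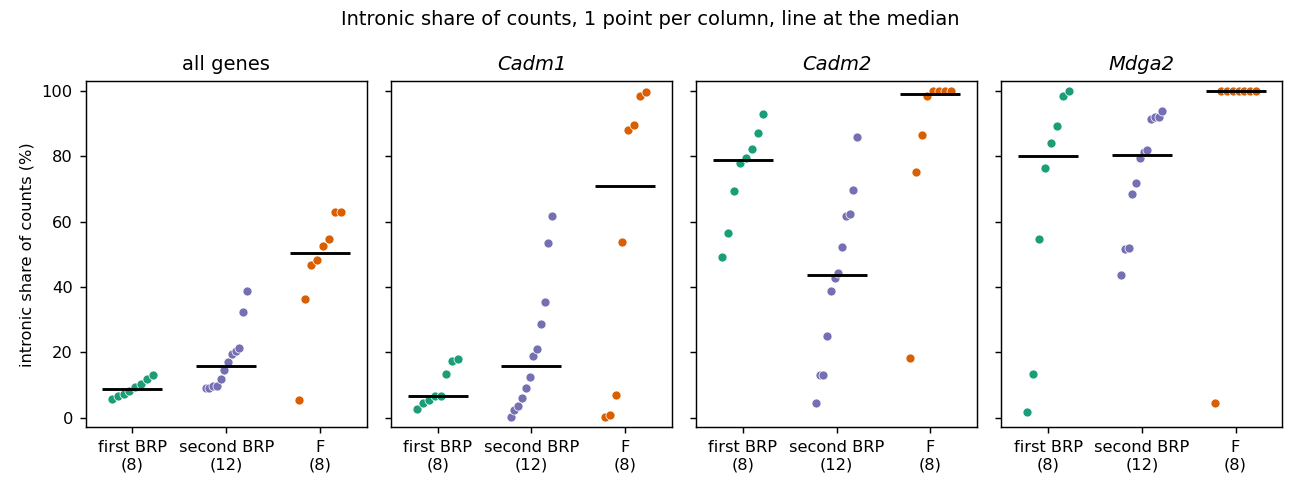
Intronic share of counts in percent for all genes together and for Cadm1, Cadm2 and Mdga2, 1 point per column with at least 10 counts of the gene, with a line at the median. Cadm2 is lower in the second BRP block (median 43.6%) than in the first (78.7%), with overlap, while Mdga2 has medians near 80% in both.

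Exonic and intronic levels were also ranked across columns. Over the 12 columns of the second BRP block, as a description across columns presumed to share a preparation, Spearman's rho between the layers was 0.23 for Cadm2, 0.24 for Cadm1, 0.59 for Mdga2 and -0.056 for Mdga1. In these 12 columns it was -0.095 for Cadm3 and 0.29 for Cadm4. The sign differed between blocks for 3 members: over the 8 columns of the first BRP block and the 8 F columns rho was -0.76 and -0.24 for Mdga2, 0.51 and -0.59 for Cadm3, and 0.36 and 0.085 for Mdga1. Between members in the same 12 columns, the highest exonic rho were 0.81 for Mdga1 with Mdga2 and 0.73 for Cadm1 with Cadm2, and the lowest was -0.59 for Cadm3 with Cadm4. In the 8 columns of the first BRP block the same pairs had rho of 0.024, -0.071 and -0.69.

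Over all 28 columns, in which blocks and depth are shared by all genes, the genes most like each member by exonic level were ranked among 10191 genes with at least 1000 counts. Cadm3 was most like Ppp1r1a (rho 0.90), an inhibitor of protein phosphatase 1, Nat14 (0.90) and Hagh (0.90). Cadm2 was most like D3Bwg0562e (0.87), the ubiquitin ligase gene Ube3a (0.87) and Large (0.86), a glycosyltransferase of dystroglycan. For Mdga2 the leading genes were the transporter Abcg2 (0.86), the bicarbonate transporter Slc4a7 (0.85) and Tmem135 (0.85), and for Mdga1 Brpf1 (0.89), 2410016O06Rik (0.85) and Tctn2 (0.85). Cadm1 had weaker neighbours, Baalc (0.75), Pisd-ps3 (0.72) and Cnot6l (0.69), as did Cadm4, with Galns (0.77), Ccnc (0.77) and Mtss1l (0.75). Within the 12 columns of the second BRP block all 18 of these rho were lower, from 0 for Cadm1 with Baalc to 0.83 for Cadm3 with Nat14, and Cadm2 with Ube3a came to 0.55.

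Mdga ligands and their partners were read from 5 genes, the neuroligins Nlgn1, Nlgn2 and Nlgn3 that Mdga proteins bind and the neurexins Nrxn2 and Nrxn3 that neuroligins pair with. All 5 had a higher exonic median in the second BRP block than in the first, by a median of 2.48 on the log2(CPM + 1) scale. Nrxn2 and Nrxn3 stood apart, 2 of 5 against the 2.56% of all genes given above. Nrxn3 had 133, 907 and 1826 CPM in the lowest, median and highest column of the second BRP block and 0, 11.7 and 50.9 CPM in the first. Nrxn2 had 237, 841 and 1186 CPM against 66.7, 149.8 and 229.9 CPM. Neuroligins overlapped: Nlgn1 had 43.6 to 334 CPM in the second and 13.9 to 64.3 CPM in the first BRP block, Nlgn2 2.74 to 82.8 and 3.47 to 23.0 CPM, and Nlgn3 had medians of 0.747 and 0.154 CPM. Per kb of exon, Nrxn3 had the highest median of these 5 in the second BRP block (72.0 CPM per kb) and in the F block (53.9), and Nrxn2 in the first (10.8).

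Of 11 cytoplasmic partners, which are the protein 4.1 genes, guanylate kinase scaffolds and Farp1, which carries a FERM domain, 2 were higher in every column of the second BRP block than in any of the first, where 2.56% of all genes were, and 1 was lower, where 3.26% were. Mpp3, a scaffold of the palmitoylated membrane protein family, had 0.895, 28.8 and 280 CPM in the second BRP block and at most 0.446 CPM, with 8 counts in all, in the first. Epb41l1, the protein 4.1 known as the neuronal type, had 98.2, 189 and 426 CPM against 2.79, 15.2 and 27.4 CPM. Mpp1 went the other way with 55.6, 98.9 and 148 CPM in the first BRP block and 0, 0.357 and 44.2 CPM in the second. Cask, a scaffold that also binds neurexins, had medians of 123 and 109 CPM in the first and second BRP block, with overlap. The highest median per kb in this list was that of Mpp1 in the first BRP block (18.5 CPM per kb), Dlg1 in the second (18.4) and Epb41l3 in the F block (12.5).

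Against the F block, 4 of the 11 were higher in every column of the first BRP block (Epb41l2, Pals2, Dlg1 and Farp1) and 3 in every column of the second (Mpp2, Mpp3 and Dlg1), where all genes gave 22.0% and 9.25%. Dlg1 had medians of 104 and 197 CPM in the BRP blocks and at most 2.49 CPM in an F column. Epb41l2 had at least 50.8 CPM in the first BRP block and at most 1.45 CPM in an F column, Farp1 21.5 and 7.77 CPM, and Pals2 28.7 and 0.739 CPM. Mpp2 had 0.0940 to 8.01 CPM in the second BRP block and 0 counts in all F columns, where 3 counts correspond to 0.202 to 3.58 CPM, so a difference was not detectable at this depth. The lowest Mpp3 level in the second BRP block, 0.895 CPM, is also under the level of 3 counts in F12, F16 and F24.

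The nectin relatives and their adaptor Afdn (afadin) gave no gene apart between the BRP blocks. Nectin3 had medians of 71.6 and 99.1 CPM there and 2 counts in all F columns together, and Nectin1 14.6 and 32.4 CPM and 4 counts. Both stood above the F block in every column of the first BRP block, 2 of 5 tested against 22.0%, but the lowest Nectin1 level there, 0.864 CPM, is under the level of 3 counts in F12, F16 and F24, so for that gene the depth cannot show the separation. By intronic level Nectin3 and Pals2 also stood above the F block in the first BRP block, where 3.15% of genes did. Afdn had the highest median per kb of this list in the first BRP block (7.92 CPM per kb), Nectin3 in the second (7.77) and Pvr in the F block (0.0744). Crtam, a lymphocyte receptor for Cadm1, had 1 exonic count in all.

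**Figure D5:**
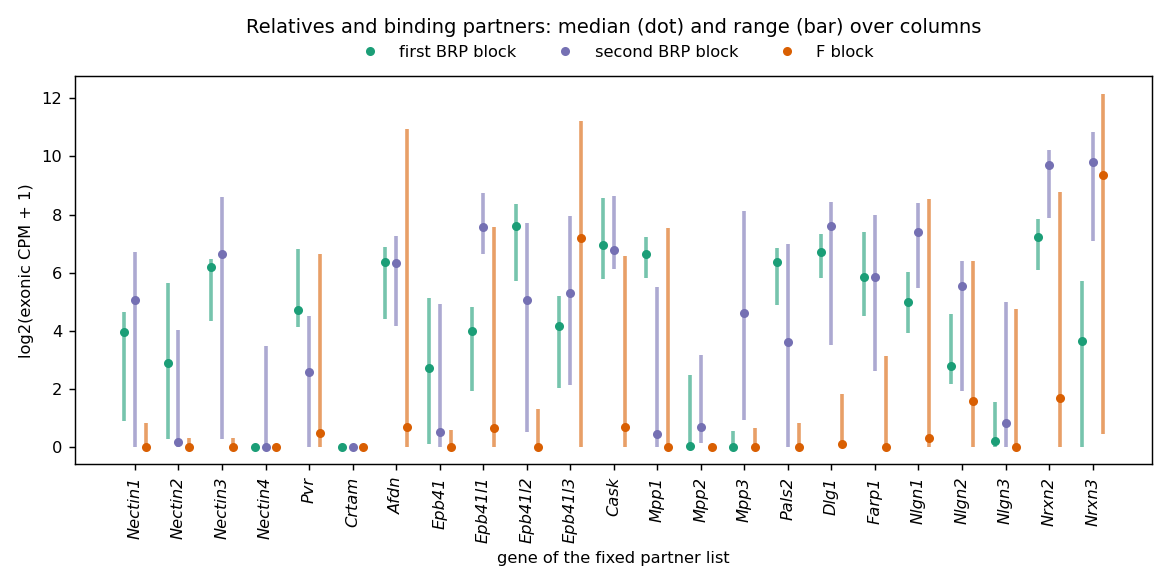
Exonic level of 23 relatives and partners as log2(CPM + 1), with the median (dot) and the range from lowest to highest column (bar) for each block. The second BRP block lies above the first for Nrxn2, Nrxn3, Epb41l1 and Mpp3, below it for Mpp1, and F bars mostly reach from 0 upwards.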

How the data were processed

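RNA of 28 single cells was sequenced. The authors deposited raw counts, whole numbers in 28 columns, for exons (23453 genes) and introns (20422 genes). The submitters' processing notes name bcl2fastq 2.17, STAR 2.4.0 and mm10. The counting tool, annotation and strand setting are not given in the sources used here. Counts were scaled here to CPM of each column's exonic or intronic total and, where stated, to log2(CPM + 1). No column could be matched to a sample, so the blocks of codes given with the task were described without a test, and no count model was fitted. Members, partner lists and markers were chosen with earlier results of these data known. Named genes are the 6 members, partner list genes with the highest median per kb in a block or with blocks apart, the 3 genes of highest Spearman rho with each member (at least 1000 exonic counts, a count in at least 14 columns), and markers. Nlgn1, Nlgn2, Nlgn3, Cask and Crtam were named beside these after their values were seen. One gene of the partner lists is not reported here. Columns singled out for their markers were chosen after their values were seen. Exon and intron lengths are merged GENCODE M21 models on GRCm38, matched by symbol for 98.5% of exonic and 98.8% of intronic genes. An intronic share needed at least 10 counts. Counting intervals and the floor of 3 counts cover counting error only, and nothing says that reads carried molecular identifiers. No pair of the 378 pairs of columns agreed within sampling noise (lowest chi-square per degree of freedom 17.6). The comparison of ranges was run on simulated counts with the same relative spread for every gene, so its outcome there does not carry over to these columns. Alternatives were edgeR 4.0.16 TMM factors, DESeq2 1.42.0 size factors, other totals, a pseudocount of 0.1, other lengths and columns left out. Python 3.11.15, pandas 2.3.3, numpy 2.4.6, scipy 1.17.1, matplotlib 3.10.9 and R 4.3.3 were used.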

Additional observations from a re-analysis of the deposited data

Results flagged for a closer look

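In blocks of 8 columns, 24 sets of values with any spread (6 genes, 2 layers, 2 blocks) were searched for a column far from the others. Dixon's criterion on log2(CPM + 1) was used, which picks about 1 in 20 by chance when values are normally distributed, and 4 were found. Exonic Cadm3, Mdga2 and Mdga1 had at least 10 counts in 1, 1 and 0 of the 8 F columns, so that rate does not hold for these sets. In the F block, F1 stood apart with an exonic level of 34.3 CPM for Cadm3 and 39.5 CPM for Mdga2, and F2 with 0.542 CPM for Mdga1, which is 3 counts where the other 7 columns had none, so that any count at all would have been picked. In the first BRP block, BRP568 stood apart with an intronic level of 18.6 CPM for Mdga2, below the other 7 columns. F1 has the lowest intronic share of counts among F columns (5.31%), and whether this bears on its exonic levels was not tested.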

How the results depend on the processing

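The count of members whose exonic columns were all higher in the second than in the first BRP block stayed at 2, Cadm2 and Cadm3, under every scaling and column choice run, each column left out in turn included. The count of members higher in every column of the second BRP block than in any F column was 0 with all columns and under each scaling, 2 without F1 (Cadm3 and Mdga2) and 2 without BRP528, BRP529 and BRP541 (Cadm3 and Mdga1, chosen after seeing the data), and it ran from 0 to 2 over the columns left out one at a time. Without F7, F11, F12, F16 and F24, also chosen after seeing the data, the median exonic Cadm2 level of the F block was 8.98 on the log2(CPM + 1) scale, against 2.87 with all 8 columns. A pseudocount of 0.1 set F block medians to -1.38 (Cadm3 exonic), -3.32 (Mdga1 exonic and Cadm3 intronic), -2.19 (Cadm4 intronic) and -1.32 (Mdga1 intronic), as it must near 0 counts. With the longest transcript as length, the log2 ratio of exonic Cadm2 to Cadm1 per kb was -3.69 in the first and -1.02 in the second BRP block. DESeq2 factors shifted the median gene between the BRP blocks by 0.28 (exonic) and 0.31 (intronic) on the log2 scale and TMM factors by 0.15 and 0.30, the intronic difference of Cadm2 changed sign under both, and that of Mdga2 went from 0.031 to 0.87 and 0.80. The share of all genes apart between the BRP blocks was 4.35% (second above first) and 5.87% (first above second) without BRP528, BRP529 and BRP541. The exonic Mdga1 difference between the BRP blocks ran from -0.075 to 1.00 when columns were left out one at a time, and all 18 likeness rho fell over the second BRP block alone. No paired analysis was possible because no column carries a replicate number. The 8 F columns differ in depth from 838343 to 14831505 exonic counts, which limits what 0 counts in an F column can show.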
